A study of Mus musculus with 6 samples.

Results

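Transcripts of 44 genes of mitosis and of the G2/M step before it were followed in the cerebral cortex of mouse embryos at embryonic day 18. The 44 symbols formed a given list, matched to rows of a gene count table through GENCODE mouse release M21. All 44 had a row among the 55401 of the table, with Sgol1 found under its current symbol Sgo1, and all 44 were among the 19844 genes that passed the filter on low counts. Bulk RNA sequencing gave 3 libraries from Csmd3 knockout embryos (labelled Csmd3-/-) and 3 from wild-type embryos. Both groups were of the C57BL/6 strain, came from matings of heterozygous Csmd3 parents and received no treatment that the labels record. The product of Csmd3 is a transmembrane protein built of repeated CUB and Sushi domains. Which exons of Csmd3 are missing, which litter and sex an embryo was, and whether tissue was pooled are not in the labels. Nothing there says that libraries of a group came from separate embryos, so the p-values measure only the spread between these libraries. The comparison is of the libraries labelled knockout with those labelled wild type, and the totals were 54244288 to 68269607 deposited counts a library.

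A dividing cell accumulates cyclin A and then cyclin B, which activate the kinase CDK1 and start mitosis. Chromosomes condense, kinetochores attach them to a spindle of microtubules, and a checkpoint holds the cell until every chromosome is attached. The ubiquitin ligase APC/C then destroys cyclin B and lets the chromosomes part, and a contractile ring divides the cell. Most of these genes are transcribed in G2 and early mitosis, so in a tissue their transcripts come largely from cells in division. In the embryonic cortex those are chiefly radial glia, the stem cells at the ventricle, and the intermediate progenitors made from them, while neurons have left the cycle.

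Mitotic and G2/M transcripts were higher in knockout cortex. Of the 44 genes, 29 rose (65.9%) at an adjusted p under 0.05 by edgeR's quasi-likelihood test, where 5.21% of all genes tested rose. The list was chosen with earlier results of these data known, so this contrast is not independent of the data. None of the 44 fell, where 2.53% of all genes tested did, and in edgeR 0 had a log2 fold change below 0 at any p. Among the 9252 genes whose mean level lay within the range of these 44, 5.4% rose. The fitted log2 fold change (knockout minus wild type) was above 0 for all 44, from 0.04 to 0.99 with a median of 0.58, where the median of all tested genes was 0.00. On the linear scale the ratio of group means ran from 1.03 to 1.99, with a median of 1.5. For 42 of the 44, every knockout library lay above every wild-type library, as it did for 15.6% of all tested genes. Summed over the 44 genes, the level was 1831, 1868 and 1869 CPM (counts scaled to a common library size) in knockout libraries 1, 2 and 3, against 1155, 1237 and 1396 CPM in wild-type libraries 1, 2 and 3. The 3 knockout sums lie close together and wild-type library 3 is the nearest to them, but the groups do not overlap. In bulk tissue a larger number of dividing cells and more of these transcripts per dividing cell cannot be told apart.

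**Figure D1:**
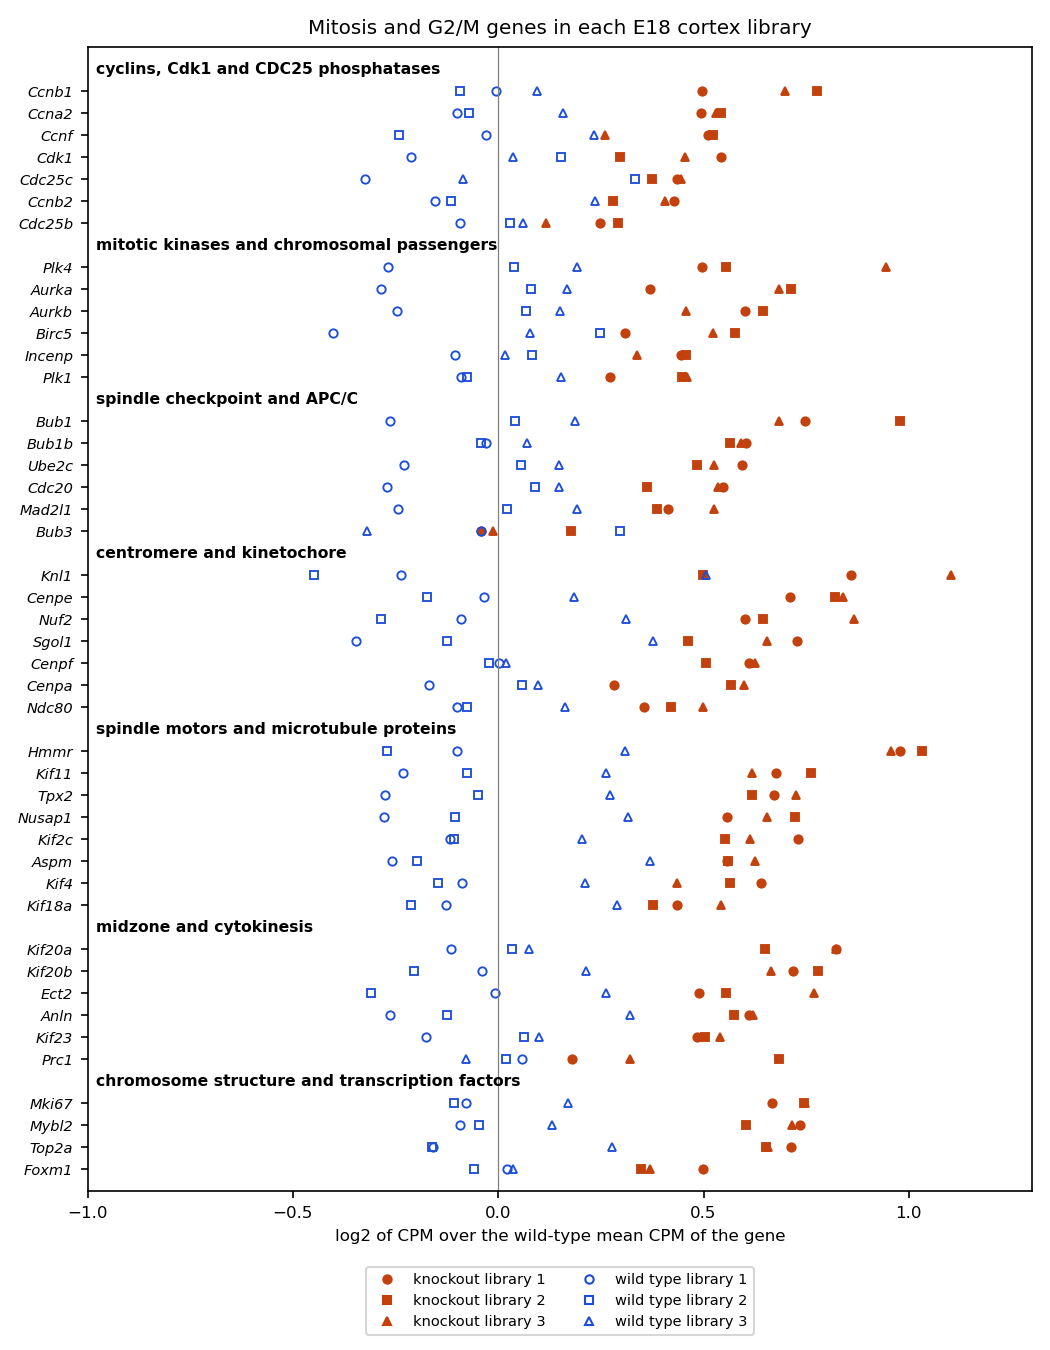
Level of each of the 44 genes in each library, as the log2 of its CPM over the gene's wild-type mean (horizontal axis), grouped by role and ordered within a role by fold change. Filled symbols are the 3 knockout libraries and open symbols the 3 wild-type libraries. Bub3 and Knl1 are the genes whose groups overlap, and wild-type library 3 holds the highest wild-type value for 38 genes.

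The libraries differed within a group in a way that was shared by most of the 44 genes. Wild-type library 3 was the highest of the wild-type group for 38 genes, and wild-type library 1 the lowest for 27. Knockout libraries showed no such order, with library 3 highest of its group for 18 genes, library 2 for 15 and library 1 for 11. The median coefficient of variation over the 44 genes was 5.81% within knockout and 14.9% within wild type. The number of calls depended on the libraries used. Without knockout library 1, 2 or 3, 15, 16 and 12 of the 44 passed, where 2.8%, 3.25% and 2.29% of all genes rose. Without wild-type library 1, 2 or 3, 15, 16 and 38 passed, where 3.07%, 3.18% and 6.78% of all genes rose. Without knockout libraries 2 and 3 together, 0 passed in edgeR (1.19% of all genes rose), and 28 of the 44 had an unadjusted p under 0.05. The median log2 fold change stayed between 0.46 and 0.66 over the fits that leave out 1 library. Of the 29 calls, 11 held with every single library left out: Ccna2, Ccnb1, Bub1, Bub1b, Cenpe, Cenpf, Hmmr, Kif20a, Kif20b, Mki67 and Top2a. The other 18 lost the threshold without at least 1 library (highest adjusted p = 0.166).

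Transcripts of other cell types moved between the groups as well. Beside the counts below, 5.21% of all genes tested rose and 2.53% fell in edgeR. Of 15 markers of meninges and mural cells 13 rose, and their summed level was 692 to 864 CPM in knockout and 118 to 131 CPM in wild type. Of 12 microglia and macrophage markers 9 rose, with a sum of 115 to 143 CPM in knockout and 32.6 to 37.7 CPM in wild type. Of 10 endothelial markers 7 rose, with a sum of 433 to 537 CPM in knockout and 254 to 289 CPM in wild type. Choroid plexus markers had 3 of 7 tested genes higher. Their sum was 45.4, 70.4 and 523 CPM in knockout libraries 1, 2 and 3 and 6.87 to 7.89 CPM in wild type, with Folr1 at 0 counts in all wild-type libraries and in knockout library 1, and Ttr at 0 in wild-type libraries 2 and 3. Of 8 erythroid genes 0 passed in edgeR, DESeq2 and limma-voom and 1 was higher at an unadjusted p under 0.05, with a sum of 1886 to 2203 CPM in knockout and 1519.7 to 2106 CPM in wild type. Markers of postmitotic neurons, which check the tissue label, were abundant in every library at 8056 to 8632 CPM in knockout and 8901 to 9936 CPM in wild type, with 3 of 12 lower. The part of these cell types in the higher mitotic transcripts was not tested. Csmd3 itself had 675, 653 and 543 deposited counts in knockout, against 992, 765 and 867 in wild type, a log2 fold change of -0.59 (SE 0.13, adjusted p = 0.0233) whose call was lost in 4 of the 6 fits that leave out 1 library (each knockout library and wild-type library 1), so it checks the labels only weakly.

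Promoters of genes expressed in G2 and mitosis are known to share short sequence elements, and these are shown as a description. Whether they had a part in the higher transcripts was not tested. The cell cycle genes homology region, or CHR, is bound in human cells by LIN54 of the MuvB complex. MuvB represses such genes in resting cells as part of the DREAM complex, and in dividing cells works with B-MYB (Mybl2) and FOXM1 to activate them. CCAAT boxes are bound by the factor NF-Y, and E2F sites by the E2F family. RefSeq promoter windows (GRCm38.p6, from 250 bases before to 50 after an annotated start) were found for 37 of the 44 genes. Below are Cdc20 and Top2a, the genes of highest level per length with a CHR, Mybl2, and Ccnb1 and Nusap1, the genes of highest level without one. They run 5′ to 3′ on the strand of the gene, and capitals mark the motifs, each searched on both strands, so that ATTGG is a CCAAT box on the opposite strand. A CHR was read as TTTGAA or its variant with the letters TTCGAA, and a CCAAT box by the letters of its name. An E2F-type site was any of TTCCCGC, its variant form TTCGCGC, and the further form TTGGCGC.
Cdc20 (chr4:118437294-118437593, minus strand): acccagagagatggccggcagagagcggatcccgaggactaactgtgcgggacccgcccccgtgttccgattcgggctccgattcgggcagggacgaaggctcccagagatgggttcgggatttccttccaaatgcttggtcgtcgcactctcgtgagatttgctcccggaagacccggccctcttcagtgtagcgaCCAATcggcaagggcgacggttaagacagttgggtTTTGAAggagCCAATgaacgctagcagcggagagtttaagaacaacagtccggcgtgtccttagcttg
Top2a (chr11:99024140-99024439, minus strand): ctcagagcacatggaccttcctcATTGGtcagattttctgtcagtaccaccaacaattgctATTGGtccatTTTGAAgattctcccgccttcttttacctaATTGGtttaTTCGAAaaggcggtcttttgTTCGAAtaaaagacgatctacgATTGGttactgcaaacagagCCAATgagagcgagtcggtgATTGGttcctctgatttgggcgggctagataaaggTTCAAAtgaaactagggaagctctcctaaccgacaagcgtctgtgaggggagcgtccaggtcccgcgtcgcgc
Mybl2 (chr2:163054385-163054684, plus strand): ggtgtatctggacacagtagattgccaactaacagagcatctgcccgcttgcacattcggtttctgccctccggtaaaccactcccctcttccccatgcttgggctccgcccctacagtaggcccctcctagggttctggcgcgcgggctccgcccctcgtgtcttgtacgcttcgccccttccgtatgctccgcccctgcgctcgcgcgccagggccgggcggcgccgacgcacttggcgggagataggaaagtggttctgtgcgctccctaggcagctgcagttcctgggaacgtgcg
Ccnb1 (chr13:100786437-100786736, minus strand): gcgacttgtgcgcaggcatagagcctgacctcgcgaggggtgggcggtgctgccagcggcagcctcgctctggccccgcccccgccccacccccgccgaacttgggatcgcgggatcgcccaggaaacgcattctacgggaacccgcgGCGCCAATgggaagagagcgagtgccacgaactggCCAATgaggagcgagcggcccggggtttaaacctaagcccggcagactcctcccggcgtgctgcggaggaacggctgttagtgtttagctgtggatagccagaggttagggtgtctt
Nusap1 (chr2:119618048-119618347, plus strand): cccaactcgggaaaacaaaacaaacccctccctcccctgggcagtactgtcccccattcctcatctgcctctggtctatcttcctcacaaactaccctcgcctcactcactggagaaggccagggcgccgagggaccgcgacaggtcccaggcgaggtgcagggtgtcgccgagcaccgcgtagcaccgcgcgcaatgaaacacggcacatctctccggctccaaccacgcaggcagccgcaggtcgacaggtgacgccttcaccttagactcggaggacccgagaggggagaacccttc

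Counted from the annotated start, Cdc20 had a CHR at -18 between CCAAT boxes at -53 and -8. Top2a held 4 CHR matches, the closest at -23, among 6 CCAAT boxes. Ccnb1 had no CHR but CCAAT boxes at -99 and -67, the first of which shares bases with an E2F-type match at -102. Mybl2 and Nusap1 held none of the letters searched. For 33 of the 40 windows of these genes the last 30 bases occur in an annotated transcript of the gene. The Mybl2 window is not among them, as it ends at 163054684, before the gene start at 163054687. Windows of Plk4 and Mad2l1, also without a CHR, are not among them either, so bases nearer to these starts may not have been searched. A CHR was present for 28 of 37 genes (75.7%), against 21.7% of 27025 genes with a promoter of this length. Between -50 and +50 of the start it was present for 26 (70.3%), against 6.12% of all genes. CCAAT boxes were present for 25 (67.6%, against 41.1%) and E2F-type letters for 7 (18.9%, against 9.2%). Of the 9 E2F-type matches 3 overlap a CCAAT box, where the same Ect2 site is counted in each of its 2 windows. Genes with a CHR had a median log2 fold change of 0.58 with 17 of 28 called, and those without one 0.66 with 6 of 9 called, with no test made. A match is a run of letters and not a shown binding site, and its absence says only that these letters are not in this window.

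**Figure D2:**
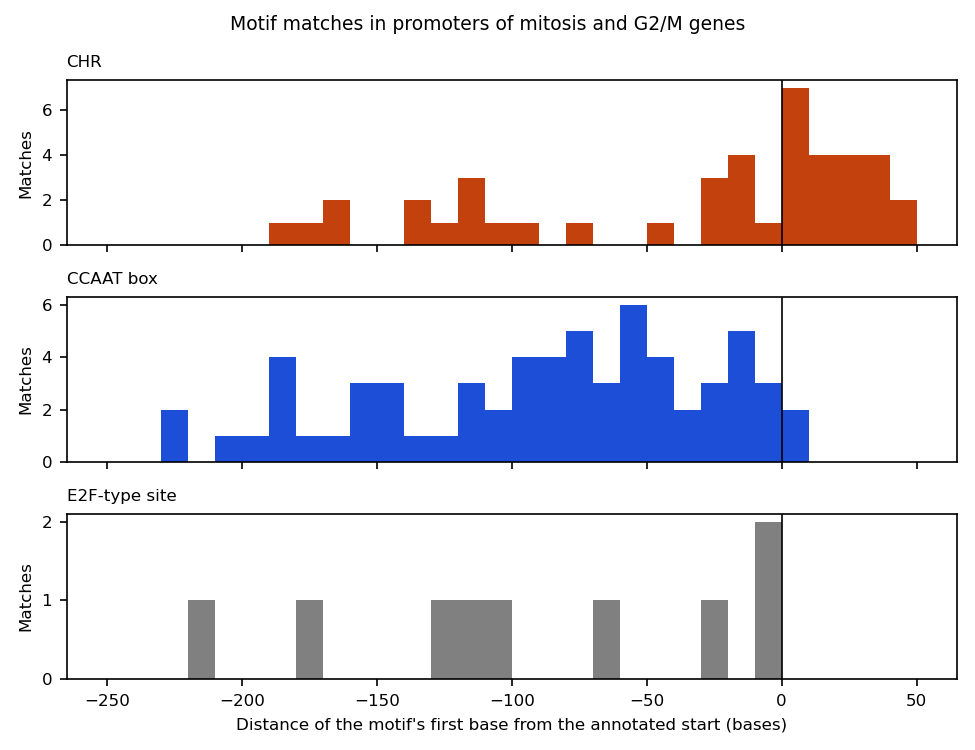
Number of motif matches (vertical axis) by distance of the first base of the match from the annotated start (horizontal axis, bases, in bins of 10) over 40 promoter windows of 37 genes, 3 of which have 2 windows. CHR matches gather around the start, with 30 of 43 between -50 and +50, and CCAAT matches lie mostly before it, with 49 of 64 between -150 and -1. A site that lies in both windows of a gene is counted in each.

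Chromosome structure and transcription factor genes were called in 4 of 4 cases. Mki67 (ENSMUSG00000031004.8, chromosome 7, 135689784 to 135716361, minus strand, mm10) encodes the proliferation antigen that coats mitotic chromosomes. It had 176, 185 and 186 CPM in knockout, against 105, 103 and 124 CPM in wild type. All 3 knockout values exceed all 3 wild-type values, and the log2 fold change of 0.72 (SE 0.08, adjusted p = 0.00112) had the smallest adjusted p of the 44. Top2a (chromosome 11, 98992943 to 99024189, minus strand), the topoisomerase that untangles sister chromatids, had 206, 198 and 198 CPM in knockout, against 112, 112 and 152 CPM in wild type. Its log2 fold change was 0.67 (SE 0.12, adjusted p = 0.00959), and wild-type library 3 stood well above the other wild-type libraries.

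Foxm1 and Mybl2, the factors that drive G2/M transcription with MuvB, both rose. Foxm1 (chromosome 6, 128362967 to 128376146, plus strand) had 45.5, 40.9 and 41.6 CPM in knockout, against 32.7, 30.9 and 33.01 CPM in wild type. Its groups were tight and apart, and the log2 fold change of 0.41 (SE 0.09, adjusted p = 0.0203) was the smallest among the 29 genes called. Mybl2 (chromosome 2, 163054687 to 163084688, plus strand) had 17.1, 15.7 and 16.9 CPM in knockout, against 9.65, 9.98 and 11.3 CPM in wild type. Here the change in log2 was 0.69 (SE 0.12, adjusted p = 0.00955), a call that missed the threshold without knockout library 3 (adjusted p = 0.0503), and the call for Foxm1 was lost in 5 of the 6 fits that leave out 1 library (up to an adjusted p of 0.0978).

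Among the cyclins, their kinase and its activating phosphatases, 2 of 7 genes rose. Ccna2, the cyclin that acts from S phase into early mitosis, had 74.6, 77.1 and 76.5 CPM in knockout, against 49.4, 50.4 and 59.1 CPM in wild type, with a log2 fold change of 0.52 (SE 0.09, adjusted p = 0.00779). For Ccnb1, the main mitotic cyclin, the values were 41.2, 49.98 and 47.3 CPM in knockout, against 29.1, 27.4 and 31.1 CPM in wild type. Its log2 fold change was 0.66 (SE 0.10, adjusted p = 0.00479), and both cyclins kept the call without any 1 library. The relative Ccnb2 had 25.7, 23.2 and 25.3 CPM in knockout, against 17.2, 17.6 and 22.5 CPM in wild type. Its groups did not overlap, but wild-type library 3 came close to knockout, and the log2 fold change of 0.37 (95% interval 0.09 to 0.66, adjusted p = 0.117) did not pass.

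Cdk1, the kinase these cyclins activate, had 36.7, 30.9 and 34.5 CPM in knockout, against 21.7, 27.99 and 25.8 CPM in wild type. The knockout values were higher throughout, with a log2 fold change of 0.44 (95% interval 0.17 to 0.70, adjusted p = 0.0563). Ccnf encodes cyclin F, an F-box protein of a ubiquitin ligase and not a CDK partner. It had 28.8, 29.1 and 24.2 CPM in knockout, against 19.8, 17.1 and 23.8 CPM in wild type, with a log2 fold change of 0.44 (95% interval 0.13 to 0.75, adjusted p = 0.0942), and knockout library 3 lay just above wild-type library 3. Neither phosphatase gene passed. Cdc25b, which acts early at the centrosome, had 39.5, 40.7 and 36.03 CPM in knockout, against 31.2, 33.9 and 34.6 CPM in wild type, a log2 fold change of 0.22 (95% interval 0.02 to 0.42, adjusted p = 0.186). Cdc25c had 13.97, 13.4 and 14.1 CPM in knockout, against 8.24, 13.01 and 9.72 CPM in wild type, a log2 fold change of 0.42 (95% interval 0.04 to 0.80, adjusted p = 0.178), with wild-type library 2 almost at the knockout level.

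Mitotic kinases and chromosomal passenger genes rose in 4 of 6 cases. Plk4, the kinase that starts centriole duplication, had the largest fold change of them with 17.8, 18.5 and 24.3 CPM in knockout, against 10.5, 12.96 and 14.4 CPM in wild type. Knockout library 3 was the highest, and the change in log2 was 0.68 (SE 0.16, adjusted p = 0.035). Aurka, the kinase of the spindle poles, was at 0.60 (SE 0.15, adjusted p = 0.0407) on the same scale. In the chromosomal passenger complex, which corrects wrong attachments and later acts at the midzone, the kinase gene Aurkb was at 0.57 (SE 0.13, adjusted p = 0.0277) and the scaffold gene Incenp at 0.41 (SE 0.09, adjusted p = 0.0189). Its survivin subunit, Birc5, had 17.7, 21.3 and 20.5 CPM in knockout, against 10.8, 16.99 and 15.1 CPM in wild type. Wild-type libraries 2 and 3 approached knockout library 1, and the log2 fold change of 0.47 (95% interval 0.10 to 0.85, adjusted p = 0.13) missed the threshold. Plk1, which acts from mitotic entry to cytokinesis, was the most abundant of this role per length. It had 28.8, 32.5 and 32.8 CPM in knockout, against 22.4, 22.6 and 26.5 CPM in wild type, with a log2 fold change of 0.40 (95% interval 0.15 to 0.64, adjusted p = 0.0568).

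Spindle checkpoint and APC/C genes rose in 4 of 6 cases, and this role held the gene that moved least. Bub1, a checkpoint kinase at kinetochores, had 22.7, 26.6 and 21.7 CPM in knockout, against 11.3, 13.9 and 15.4 CPM in wild type. Its log2 fold change of 0.81 (SE 0.14, adjusted p = 0.00988) was the largest of the role. Bub1b encodes BubR1, which inhibits the APC/C. It had the tightest knockout group of the role at 50.8 ± 0.702 CPM in knockout and 33.8 ± 1.44 CPM in wild type (SD, n = 3), a log2 fold change of 0.59 (SE 0.08, adjusted p = 0.00233). Cdc20, the APC/C activator that the checkpoint restrains, was the most abundant of the 44 per length, at 24.5 CPM per kb of merged exons in knockout and 17.5 in wild type. It had 47.9, 42.1 and 47.5 CPM in knockout, against 27.2, 34.9 and 36.3 CPM in wild type, a log2 fold change of 0.48 (SE 0.12, adjusted p = 0.0393). Ube2c, an E2 enzyme of the APC/C, was at 0.54 (SE 0.11, adjusted p = 0.0168).

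The checkpoint proteins Mad2 and Bub3 form the inhibitory complex together with BubR1 and Cdc20. Mad2l1 had 24.9, 24.4 and 26.9 CPM in knockout, against 15.8, 18.97 and 21.4 CPM in wild type, a log2 fold change of 0.44 (95% interval 0.16 to 0.73, adjusted p = 0.0669), with groups apart. Bub3 (ENSMUSG00000066979.6, chromosome 7, 131560222 to 131571895, plus strand) had 88.5, 103 and 90.3 CPM in knockout, against 88.5, 112 and 73.00 CPM in wild type. The groups overlap fully, since wild-type library 2 was the highest of all 6 and wild-type library 3 the lowest. Its log2 fold change was 0.04 (95% interval -0.30 to 0.38, adjusted p = 0.903), and it was -0.0195 without knockout library 2, -0.092 without wild-type library 3 and 0.219 without wild-type library 2.

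Centromere and kinetochore genes rose in 4 of 7 cases. Cenpa encodes the histone H3 variant that marks centromeres and was the most abundant of them per length, with 31.99, 38.95 and 39.8 CPM in knockout, against 23.4, 27.4 and 28.1 CPM in wild type. Its log2 fold change was 0.49 (SE 0.12, adjusted p = 0.035), and knockout library 1 was nearest to wild type. Cenpe, the kinetochore motor that brings chromosomes to the spindle equator, had a log2 fold change of 0.79 (SE 0.11, adjusted p = 0.00299), and Cenpf, a large outer kinetochore protein of G2 and mitosis, 0.58 (SE 0.07, adjusted p = 0.00178). Both kept their call without any 1 library.

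Nuf2 and Ndc80 encode partners in the complex that grips microtubule ends. Nuf2 was at 0.71 (SE 0.16, adjusted p = 0.0273). Ndc80 had 10.5, 11.01 and 11.6 CPM in knockout, against 7.67, 7.81 and 9.22 CPM in wild type, a log2 fold change of 0.43 (95% interval 0.13 to 0.72, adjusted p = 0.0901), so that 1 of the pair passed, and the difference between them was not tested. Knl1, the scaffold to which the Bub proteins bind, had 22.5, 17.6 and 26.7 CPM in knockout, against 10.5, 9.10 and 17.6 CPM in wild type. Its groups overlap, as wild-type library 3 reached the level of knockout library 2. With the highest SE of the 44, its log2 fold change of 0.84 (95% interval 0.20 to 1.48, adjusted p = 0.123) did not pass although it was the second largest by size. Sgol1, the shugoshin that protects cohesin at centromeres, had 12.9, 10.7 and 12.3 CPM in knockout, against 6.13, 7.15 and 10.1 CPM in wild type, a log2 fold change of 0.62 (95% interval 0.19 to 1.05, adjusted p = 0.0855).

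Spindle motors and microtubule proteins rose in 6 of 8 cases. Hmmr (ENSMUSG00000020330.16, chromosome 11, 40701395 to 40733422, minus strand), whose product anchors and organises spindle poles, had 19.7, 20.4 and 19.4 CPM in knockout, against 9.31, 8.27 and 12.4 CPM in wild type. The 3 knockout values fall within a narrow range far above wild type, and the log2 fold change of 0.99 (SE 0.16, adjusted p = 0.0055) was the largest of the 44. Tpx2, which activates Aurora A and nucleates microtubules near chromosomes, had 68.6, 66.1 and 71.1 CPM in knockout, against 35.6, 41.6 and 51.98 CPM in wild type. Its log2 fold change was 0.67 (SE 0.13, adjusted p = 0.0135). Kif11, the motor that pushes spindle poles apart, averaged 78.4 ± 3.92 CPM in knockout and 48.7 ± 8.76 CPM in wild type (SD, n = 3), a log2 fold change of 0.69 (SE 0.12, adjusted p = 0.00999).

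Nusap1, a microtubule bundling protein gene, stood at 0.65 (SE 0.15, adjusted p = 0.0286), Kif2c, a kinesin that takes microtubules apart at centromeres, at 0.63 (SE 0.12, adjusted p = 0.0151), and Kif4, a motor of chromosome arms and midzone, at 0.55 (SE 0.12, adjusted p = 0.0249). Neither of the remaining members of this role passed. Kif18a, which damps the swaying of chromosomes at the equator and was the least abundant of the 44 per length, had 11.8, 11.4 and 12.8 CPM in knockout, against 8.02, 7.57 and 10.7 CPM in wild type, a log2 fold change of 0.45 (95% interval 0.10 to 0.81, adjusted p = 0.124). Aspm, a spindle pole gene whose loss in people causes microcephaly, had 44.9, 44.99 and 47.1 CPM in knockout, against 25.5, 26.6 and 39.5 CPM in wild type. Wild-type library 3 lay between the other wild-type libraries and knockout, and the log2 fold change was 0.58 (95% interval 0.22 to 0.94, adjusted p = 0.0607).

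Midzone and cytokinesis genes rose in 5 of 6 cases. Kif20a, a kinesin needed to finish cytokinesis, was the most abundant per length and the most changed of them, with 33.3, 29.6 and 33.3 CPM in knockout, against 17.4, 19.3 and 19.8 CPM in wild type. Its change in log2 was 0.77 (SE 0.10, adjusted p = 0.00248), and that of its relative Kif20b 0.72 (SE 0.13, adjusted p = 0.0114). Kif20a shares 1271 exon bases with Cdc23 on the opposite strand, whose own log2 fold change was 0.07 (SE 0.07, adjusted p = 0.602). Kif23, the motor of the centralspindlin complex, was at 0.51 (SE 0.11, adjusted p = 0.0215), Ect2, the activator of RhoA at the cell equator, at 0.61 (SE 0.15, adjusted p = 0.0389), and Anln, an actin scaffold of the contractile ring, at 0.60 (SE 0.15, adjusted p = 0.0426). Prc1, which bundles the antiparallel microtubules of the midzone, had 40.02, 56.8 and 44.2 CPM in knockout, against 36.8, 35.8 and 33.4 CPM in wild type. Knockout library 2 was far above the other knockout libraries, and the log2 fold change of 0.41 (95% interval 0.13 to 0.70, adjusted p = 0.0865) did not pass.

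**Figure D3:**
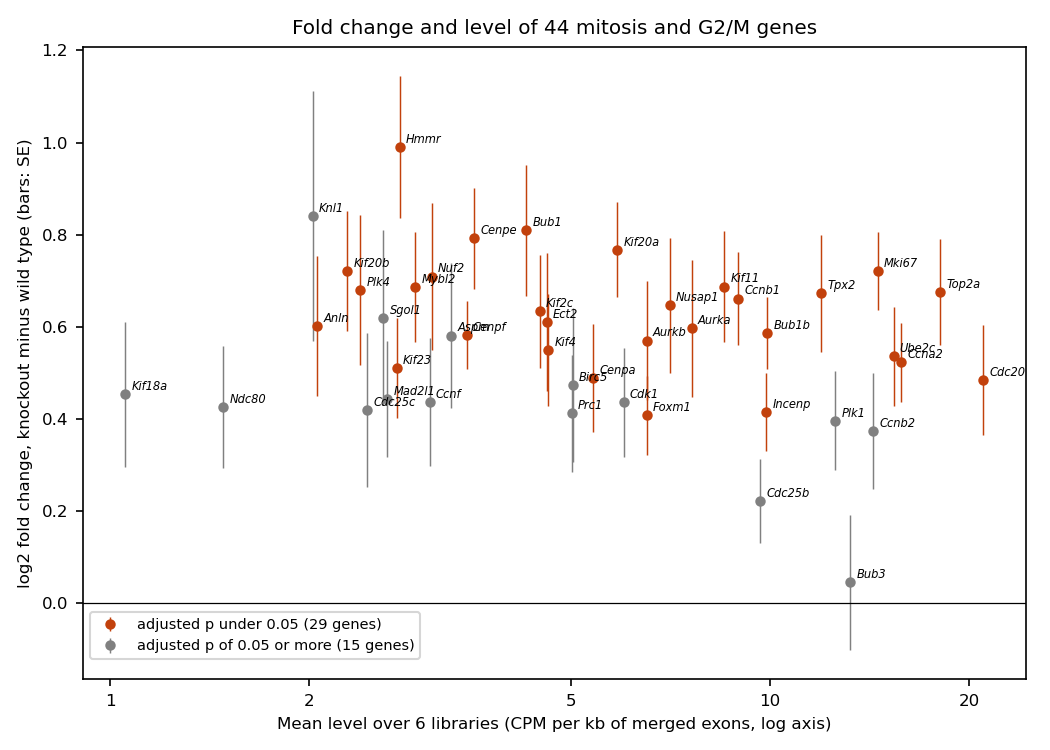
Log2 fold change of each of the 44 genes (vertical axis, knockout minus wild type, bars are SE) against its mean level over the 6 libraries (horizontal log axis, CPM per kb of merged exons). Genes past the threshold are in orange and the 15 others in grey. The 22 more abundant genes had a median of 0.53 with 16 called and the 22 less abundant ones 0.61 with 13 called, and Bub3 and Cdc25b lie below the rest.

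The 15 genes that did not pass were not shown to be unchanged. Their log2 fold changes were all positive, and 8 had an adjusted p between 0.05 and 0.10. In 13 of them every knockout library lay above every wild-type library, as in 15.6% of all tested genes (13.5% lay below). For Knl1 the 95% interval reached 1.48, and only that of Bub3 extended below 0. Just inside the threshold lay Anln (adjusted p = 0.0426) and just outside it Cdk1 (0.0563). DESeq2 called 38 of the 44 (7.42% of all genes rose) and limma-voom with sample weights 34 (5.04%), in each case including all 29. Exons of 11 of the 44 genes overlap a gene on the opposite strand (Ccna2, Cdc20, Cdc25b, Cdc25c, Kif18a, Kif20a, Kif4, Nusap1, Plk1, Prc1 and Ube2c). Exons of Ccnf, Foxm1 and Top2a overlap another gene on the same strand. These 14 counts are less certain, but to unlike degrees. The shared exon bases were 8 for Ccnf and 11 for Kif18a, against 911 for Prc1 and 1271 for Kif20a.

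Other genes of mitosis, in lists also chosen with earlier results of these data known, were higher in knockout. Of 95 outside the 44, 21 rose (22.1%) and 0 fell in edgeR, where 5.21% of all genes tested rose and 2.53% fell. At an unadjusted p under 0.05 in edgeR, 61 of the 95 were higher and 1 lower. The share of all tested genes at that unadjusted threshold is not given. Such counts, here and in the other paragraphs, therefore have nothing to be set against. DESeq2 called 41 higher (7.42% of all genes rose) and limma-voom 30 (5.04%), with 0 lower in each. The median log2 fold change of the 95 was 0.36, and the values in brackets are on that scale. Condensin, cohesin release and anaphase genes had 6 of 20 higher. The largest were the condensin subunit gene Ncapg (0.76, SE 0.14), the sororin gene Cdca5 (0.65, SE 0.12), and the condensin genes Smc4 (0.63, SE 0.13) and Ncaph (0.56, SE 0.14). Other kinetochore and centromere genes had 5 of 24 higher, among them Kntc1 (0.79, SE 0.16) and Zwilch (0.78, SE 0.18), 2 subunits of the RZZ complex of the checkpoint, and Cenpi (0.70, SE 0.14). Other spindle, centrosome and cytokinesis genes had 7 of 27 higher, among them Depdc1a (1.13, SE 0.23), Gtse1 (0.76, SE 0.14), the centriole gene Stil (0.69, SE 0.15) and Spag5 (0.63, SE 0.12).

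Regulators of mitotic entry had 2 of 15 higher, the kinase genes Melk (0.76, SE 0.13) and Wee1 (0.50, SE 0.13), where Wee1 holds CDK1 inactive. Of 9 subunits of MuvB and DREAM only Rbl1, which encodes the pocket protein p107, rose (0.73, SE 0.15), and the list had a median of 0.10. Of these 21 calls, that of Melk held without any 1 library.

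**Figure D4:**
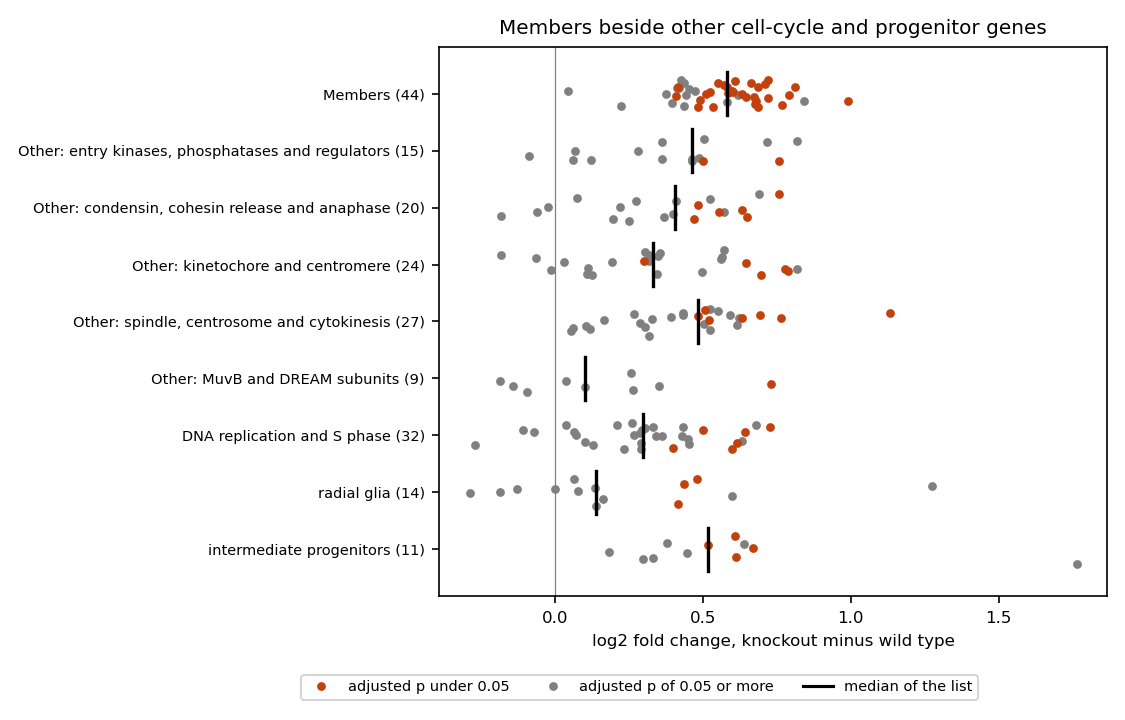
Log2 fold change (horizontal axis, knockout minus wild type) of every tested gene of the 44 members, of other mitotic genes by role, of S-phase genes and of progenitor markers, with the number of tested genes in brackets. Points are genes, in orange where the adjusted p was under 0.05, the vertical place within a row is arbitrary, and bars are medians. The median was 0.58 for the 44 members, 0.30 for S phase, 0.14 for radial glia and 0.52 for intermediate progenitors.

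Genes of DNA replication are transcribed earlier in the cycle. Of 32 such genes 6 were higher (18.8%, against 5.21% of all genes) and 0 lower in edgeR (21 and 0 at an unadjusted p under 0.05). Their median log2 fold change was 0.30. Among them were the replicative helicase subunit gene Mcm3 (0.64, SE 0.10), Mcm10 (0.73, SE 0.18), Uhrf1 (0.61, SE 0.11) and the thymidylate synthase gene Tyms (0.60, SE 0.13). Their summed level was 1299.7, 1302 and 1298 CPM in knockout, against 1004, 1053 and 1151 CPM in wild type. Set against these sums within each library, the 44 mitotic and G2/M genes stood at 1.41, 1.43 and 1.44 times the S-phase sum in knockout and at 1.15, 1.17 and 1.21 times in wild type. The 3 knockout ratios lie above the 3 wild-type ratios, a description for which no test was made.

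Markers of the dividing cell types were set beside the mitotic genes in the same way. Of 14 radial glia genes 3 rose (Pax6, Nes and Notch1) and 0 fell in edgeR, where 5.21% of all genes tested rose. The list had a median log2 fold change of 0.14, with 10 of the 14 above 0 and the lowest at -0.29. At an unadjusted p under 0.05 in edgeR 6 were higher and 1 lower, and DESeq2 called 4 higher and 1 lower. The sum over the 44 genes was 0.862, 0.967 and 0.931 times the radial glia sum in knockout and 0.625, 0.647 and 0.724 times in wild type, again without overlap. Of 11 intermediate progenitor genes 4 rose (Neurog2, Btg2, Tfap2c and Mfap4) and 0 fell in edgeR, with a median of 0.52. At an unadjusted p under 0.05 in edgeR 9 were higher and 0 lower, and DESeq2 called 8 higher. Which cells the transcripts of this list came from, Mfap4 included, was not tested. Against this list the ratios were 2.08, 1.93 and 2.10 in knockout and 1.92, 1.92 and 1.82 in wild type. The groups did not overlap, but knockout library 2 (1.931) lay close to wild-type library 1 (1.923), and no test was made. Among 7 markers of glial progenitors, which divide as well, 1 rose and 2 fell in edgeR, where 5.21% of all genes tested rose and 2.53% fell. The list had a median log2 fold change of -0.34, with 2 of the 7 above 0. Its sum was 121 to 148 CPM in knockout and 142 to 182 CPM in wild type. Olig1 (-1.40, SE 0.21) and Olig2 (-1.26, SE 0.18) were lower. Pdgfra (0.76, SE 0.11), a gene that meningeal fibroblasts also express, was higher.

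**Figure D5:**
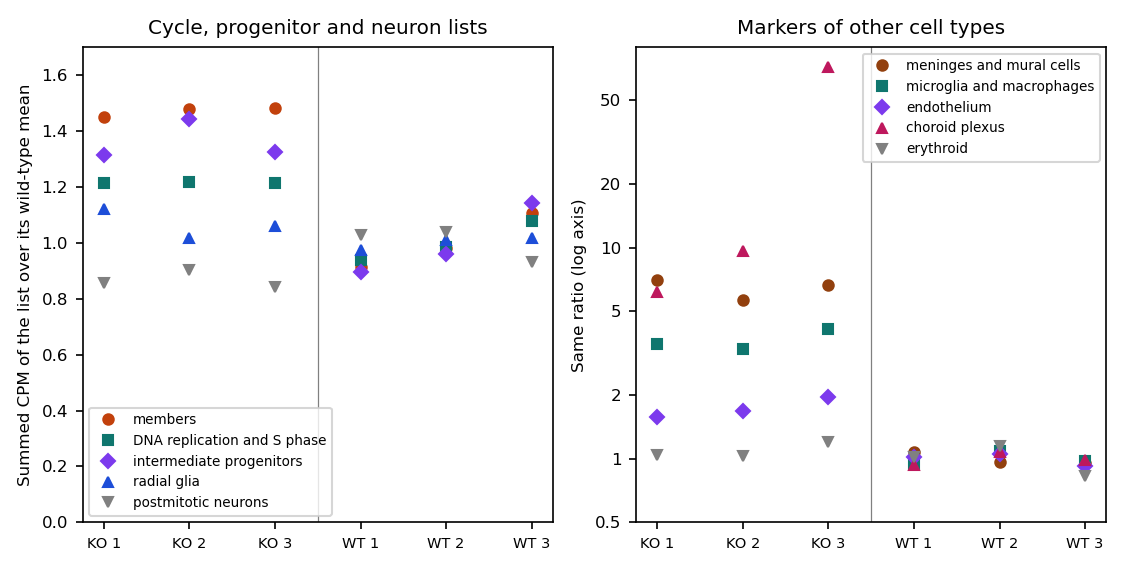
Summed CPM of each list in each library over its wild-type mean (vertical axis, linear from 0 on the left and logarithmic on the right), for knockout (KO) and wild-type (WT) libraries 1 to 3. On the left the 44 mitotic and G2/M genes (circles) stand at 1.45 to 1.48 in knockout and 0.915 to 1.11 in wild type, and on the right the meningeal, macrophage, endothelial and choroid plexus markers are higher in all 3 knockout libraries, the last most of all in knockout library 3.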

How the data were processed

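The authors deposited 1 table of raw counts for each gene, per the file headers, with a column per library. Tools listed in the submitters' processing notes, without their roles, are HISAT2 2.0.5, StringTie 1.3.4, FastQC 0.11.9 and Trim Galore 0.4.4, and the build is mm10. Not given in the sources used here are the counting program, its annotation and its use of strand. These deposited values were treated as estimated counts and needed no rounding: in wild-type library 1, 1298 genes held a 4, against 492 with a 3 and 318 with a 5, so 1 fragment adds about 4. Totals were 54244288 to 68269607 per library, and the lowest count of a member in a library was 366.

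The groups were compared with edgeR 4.0.16 in R 4.3.3 (robust quasi-likelihood fit, TMM factors, default filterByExpr), with Benjamini-Hochberg adjustment over 19844 genes and a threshold of 0.05. The SE is the absolute log2 fold change over the square root of F, and 95% intervals use the t distribution of that fit. CPM uses TMM-scaled totals. Exon lengths and coordinates, counted from 1, are from GENCODE M21, on the same assembly. Members and lists were chosen with earlier results of these data known. All members were named. Values per library are given for the most abundant, most and least changed member of each role, for the chromosome structure and transcription factor genes, and for members that did not pass. Up to 4 called genes are named from each further mitotic or S-phase list, and 1 such gene is not reported here. Alternatives were other scalings and filters, DESeq2 1.42.0, limma 3.58.1 (voom), a non-robust fit, the replicate block, counts divided by 4, and libraries left out.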

Additional observations from a re-analysis of the deposited data

How the results depend on the processing

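The median log2 fold change of the 44 genes kept its sign in every alternative run, and no member was called lower in any. Members called higher were 29 under RLE, upper-quartile and reduced TMM scaling, and 30 with counts divided by 4. They were 31 and 32 under the other filters, 34 with limma-voom, 38 with DESeq2, and 23 in the non-robust fit. All genes called higher were 1033 in the main fit, 1010, 1050 and 1047 under those scalings, and 1069 with counts divided by 4. Under the other filters they were 1021 and 1101, with limma-voom 1001, with DESeq2 1473, and in the non-robust fit 912. With the replicate block, 23 members, 702 higher genes and 253 lower genes were called. Deviations from the group means correlated at 0.028, -0.0026 and 0.0016 between libraries of the same number, and not every library correlated best with its own number. These correlations over all tested genes cannot exclude a shared litter or batch, which the labels do not give. DESeq2 called 928 lower genes, against 503 in edgeR. With 1 library left out, members called higher ranged from 12 to 38, all genes higher from 472 to 1402, and all genes lower from 137 to 956, with the low end of each without knockout library 3. The median of the members ranged from 0.46 to 0.66, its ends without wild-type libraries 1 and 3. Without knockout libraries 2 and 3 together, which hold the most Ttr, 0 members passed in edgeR (28 at an unadjusted p under 0.05), with a median of 0.56, beside 262 higher and 43 lower genes. That fit assumes that the lone knockout library varies like the wild type. Bub3 changed sign without those libraries (-0.032), and ranged from -0.092 to 0.219 with 1 library left out, below 0 without knockout library 2 (-0.0195) or wild-type library 3. Csmd3 missed the threshold with the replicate block (log2 fold change -0.58) and without both knockout libraries (-0.60), and ranged from -0.67 to -0.52 with 1 library left out. The cause of these changes was not tested. With only 3 libraries a group, an exact permutation test of a single gene cannot go below p = 0.10. The lowest deposited count of a member in a library was 366, at about 4 counts a fragment, and counting error is larger for such genes.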
